A study of Mus musculus with 11 samples.

Results

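The 8 genes described here act in purinergic signalling and chloride movement in the developing cochlea: Ano1, P2ry1, P2ry2, P2rx2, P2rx3, Slc12a2, Entpd2 and Nt5e. They were taken by symbol from the deposited expression tables, and all 8 were present at every age, among 24898 genes listed in at least 1 table and 18667 listed in all of them. The data were droplet single-cell RNA sequencing of cells from the dissociated floor of the cochlear duct, taken from wild-type CD1 mice at embryonic days 14 and 16 (E14, 2 libraries; E16, 3 libraries) and postnatal days 1 and 7 (P1, 4 libraries; P7, 2 libraries). Each library was a separate collection in which ears of several animals of both sexes were pooled, no animal was treated or carried an engineered allele, and age is the difference the labels give between the groups. The tables held 30634 cells, with a median of 2478 to 5648 unique molecular identifiers (UMIs, counted transcripts) per cell across the 11 libraries; no pair of libraries shared more than 36 cell barcodes, or more than 0.958% of those of the smaller one.

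Before hearing begins, cells of Kölliker's organ, the transient epithelium medial to the hair cells, release ATP through connexin hemichannels. ATP acts on P2Y receptors coupled to calcium stores, calcium opens the chloride channel encoded by Ano1, and the outflow of chloride draws potassium out of the cell, which depolarizes the neighbouring hair cells. Cotransporters such as the one encoded by Slc12a2 load cells with chloride, P2X receptors are ATP-gated cation channels, and ectonucleotidases break ATP down stepwise to adenosine.

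Cells were placed in classes by fixed marker lists that held none of the 8 genes and no other gene of the pathway, so that a name below means cells that passed that marker gate. Kölliker's organ cells numbered 2484 (E14), 4687 (E16), 10113 (P1) and 2256 (P7), and were split by 5 medial markers (among them Calb1, Crabp1 and Epyc) and 5 lateral markers (among them Tectb, Cpxm2 and Ctgf). At P1 the split gave 4495 medial and 3356 lateral cells, with 2262 cells left unplaced, and the other classes held 1022 hair cells (184 inner, 320 outer), 906 pillar and Deiters' cells, 600 interdental cells, 463 inner phalangeal cells, 150 Hensen's cells, 140 Claudius and outer sulcus cells and 144 roof cells. Of all 14043 P1 cells 10113 were Kölliker's organ cells, so each group of all other cells below was mostly Kölliker's organ. A lower level against such a group is mainly one against Kölliker's organ. The gate was not equally clean in every class. The summed level of the 6 Kölliker's organ markers at P1 was, relative to Kölliker's organ cells, 7.81% in hair cells, 11.2% in pillar and Deiters' cells, 54.6% in inner phalangeal cells and 75.5% in interdental cells. The hair-cell markers reached 0.810% of their hair-cell level in Kölliker's organ cells. At P7 the inner phalangeal gate held 64 cells at 81.3% of the Kölliker's organ marker level, and the Hensen's gate 15 cells at 87.5% of it, so that Hensen's cells are not described at that age. The 26 cells gated as glia at P1 held 86.8% of the Kölliker's organ marker level and are not described as a class, but they stayed in the groups of all other cells. The part of such overlap in the values below was not tested.

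Levels are in CPM, the share of a cell's UMIs taken by a gene on a parts-per-1000000 scale. They are means over the cells that a library gave to a class, and each mean is given with its SD over libraries. Tests were made with limma on log2(CPM + 10) across all genes that averaged 10 CPM or more, so fold changes are on that scale and understate the change of low genes; a difference was called at an adjusted p under 0.05. A gene that averaged 10 CPM only through the group in which it was high was favoured to differ by the filter, though not every such gene was called. The counts of called genes, of the 8 as of the wider pathway, are therefore descriptions. Of the 8 genes, those that passed in this way are named beside the counts. The same is said of wider pathway genes where they are named below, but not of every gene in their counts. Between classes and ages a lower level cannot be told apart from dilution by other transcripts, since every cell was scaled to the same total.

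The start regions of Ano1 and P2ry1 are shown because both genes were higher in lateral than in medial Kölliker's organ at P1 and both rose in Kölliker's organ from P1 to P7. They are the 250 bases before the RefSeq start on GRCm38.p6, at chr7:144738574-144738823 on the minus strand for Ano1 and chr3:61002535-61002784 on the plus strand for P2ry1, written 5′ to 3′. Capitals mark GC boxes (GGGCGG on either strand) and E-boxes (CACCTG on either strand).
Ano1: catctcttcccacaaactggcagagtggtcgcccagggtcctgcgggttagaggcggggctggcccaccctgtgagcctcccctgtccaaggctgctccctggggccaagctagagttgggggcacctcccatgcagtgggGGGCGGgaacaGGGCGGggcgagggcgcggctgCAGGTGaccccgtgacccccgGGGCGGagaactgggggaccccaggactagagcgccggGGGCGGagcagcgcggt
P2ry1: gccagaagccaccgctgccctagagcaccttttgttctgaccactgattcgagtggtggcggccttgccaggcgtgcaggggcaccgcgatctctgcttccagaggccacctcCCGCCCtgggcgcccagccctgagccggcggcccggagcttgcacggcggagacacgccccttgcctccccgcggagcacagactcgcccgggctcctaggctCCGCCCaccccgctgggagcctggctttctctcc
Ano1 held 4 GC boxes and 1 E-box, P2ry1 held 2 GC boxes and no E-box, and neither held TATAAA. Of 32851 mouse promoter windows of this length, 32.7% held a GC box, 17.2% this E-box and 12.4% TATAAA on either strand. Both windows were rich in G and C, at 72.0% for Ano1 and 70.8% for P2ry1 against a median of 52.4% over all windows. These letters are a description and say nothing of which factor binds there.

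In the GENCODE annotation of the same build, the Ano1 gene runs from 144588549 to 144751974 on chromosome 7, and the window shown lies inside this longer gene model. P2ry1 lies on chromosome 3 at 61002795-61008982, P2ry2 on chromosome 7 at 100996568-101012866, P2rx2 on chromosome 5 at 110339812-110343212, P2rx3 on chromosome 2 at 84998583-85037462, Entpd2 on chromosome 2 at 25395874-25401321 and Nt5e on chromosome 9 at 88327197-88372092. Entpd2 overlaps Npdc1 on the same strand, and reads that fall in both genes may have been lost to either, so that its level is uncertain. Ano1, P2ry1 and P2rx3 each overlap 1 gene on the opposite strand.

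The first question was where each gene was expressed at P1. The 8 genes fell in different places across the epithelium. Slc12a2 was highest in medial Kölliker's organ, Ano1 in inner phalangeal and lateral Kölliker's organ cells, P2ry1 in lateral Kölliker's organ, P2ry2 in pillar, Deiters' and inner phalangeal cells, P2rx2 in Hensen's cells, P2rx3 in hair cells, Entpd2 in inner phalangeal cells and Nt5e in Claudius and outer sulcus cells.

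**Figure D1:**
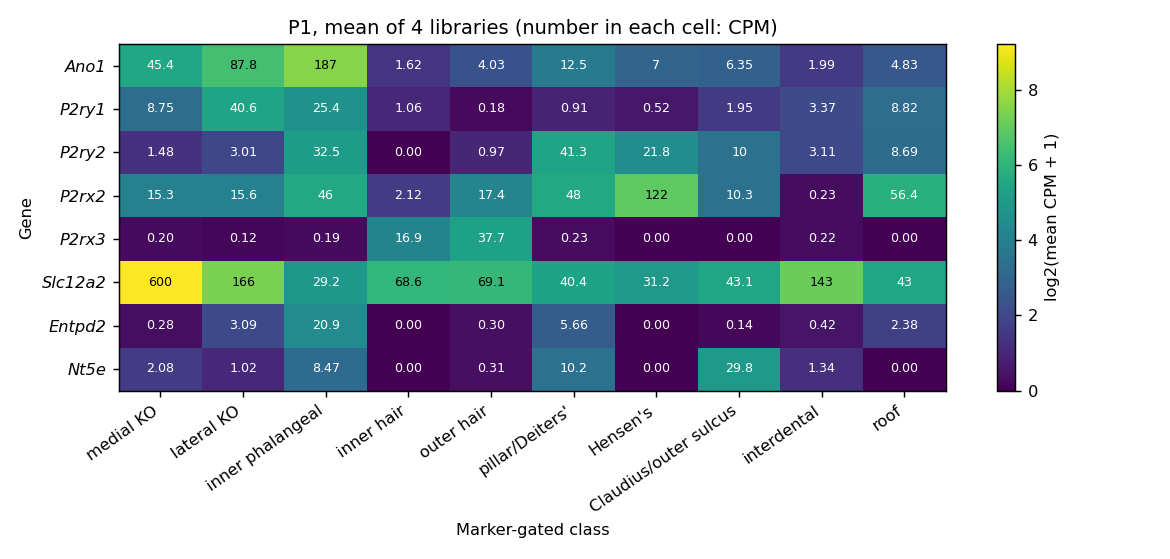
Each square is the mean CPM over 4 P1 libraries of 1 gene (rows) in 1 marker-gated class (columns), coloured by log2(CPM + 1) with the CPM printed in it; KO is Kölliker's organ. Slc12a2 reaches 600 CPM in medial Kölliker's organ, Ano1 187 in inner phalangeal cells, P2rx2 122 in Hensen's cells, and P2rx3 is above 1 CPM in the hair cell columns only.

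Kölliker's organ cells as a whole were compared with all cells outside it in the same 4 libraries. Of the 8 genes, 4 had a mean of at least 10 CPM, and all 4 differed, where 51.3% of 8904 genes tested did (16.4% higher and 34.8% lower). Slc12a2, the sodium, potassium and chloride cotransporter NKCC1, stood at 322, 424, 438 and 513 CPM in Kölliker's organ cells of the 4 libraries and averaged 84.6 ± 29.2 CPM outside them. It was higher by 2.23 ± 0.08 (log2, SE; adjusted p = 8.51e-07), and the groups did not overlap, as held for 19.4% of all genes. P2ry1, a Gq-coupled ADP and ATP receptor, was 21.8 ± 10.8 against 5.40 ± 2.82 CPM, higher by 1.00 ± 0.13 (adjusted p = 0.000329). Ano1, the calcium-activated chloride channel TMEM16A, was 59.5 ± 14.8 against 32.9 ± 7.40 CPM, higher by 0.69 ± 0.17 (adjusted p = 0.0112). P2rx2, an ATP-gated cation channel, was lower in Kölliker's organ, at 14.5 ± 7.25 against 28.2 ± 7.77 CPM, a difference of -0.66 ± 0.08 (adjusted p = 0.000286). Each of the 4 directions was seen in 4 of 4 libraries; P2ry1 passed the filter only through Kölliker's organ. Without the filter on low values Ano1 missed the threshold (adjusted p = 0.0607), and without the library as a block P2rx2 did (adjusted p = 0.0739).

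The other 4 genes were low in Kölliker's organ at P1. P2ry2 averaged 2.06 CPM there, Nt5e 1.47, Entpd2 1.18 and P2rx3 0.136 CPM, against 17.2, 5.23, 4.23 and 13.2 CPM outside. All 4 were lower in Kölliker's organ when the filter was dropped, in a fit that called 24.8% of 23042 genes (adjusted p = 0.00540 for P2ry2, 0.0158 for Nt5e, 0.0365 for Entpd2 and 0.00405 for P2rx3).

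Within Kölliker's organ medial and lateral cells were then compared at P1. Ano1 and P2ry1 were lateral and Slc12a2 medial. Of 4 genes tested, 3 differed, where 37.5% of 8224 genes did (24.4% higher in medial cells and 13% lower). In the lateral cells Ano1 stood at 79.2, 66.5, 88.8 and 117 CPM in the 4 libraries, and in the medial cells of the same libraries at 36.9, 35.5, 49.4 and 60.0 CPM. Every lateral value was above every medial one, a separation in either direction that 9.69% of all genes had, and the medial minus lateral difference was -0.82 ± 0.07 (adjusted p = 4.73e-06). Without the library as a block its adjusted p was 0.0629. P2ry1 stood at 52.1, 24.5, 28.9 and 56.8 CPM in lateral and at 12.9, 3.03, 6.19 and 12.9 CPM in medial cells. P2ry1 passed the filter only through the lateral cells. The library-to-library swing was shared by medial and lateral cells, and the difference was -1.41 ± 0.09 (adjusted p = 3.17e-07). Slc12a2 ran the other way. It stood at 487, 599, 592 and 721 CPM in medial and 130, 157, 146 and 231 CPM in lateral cells, a difference of 1.81 ± 0.06 (adjusted p = 3.24e-09) with no overlap. P2rx2 was 15.3 ± 9.88 CPM in medial and 15.6 ± 3.09 CPM in lateral cells and did not pass the test (adjusted p = 0.659); library 1 was the highest of the medial values, at 30.01 CPM against 8.71 to 11.5 CPM in the other 3.

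The same comparison at E16, in 3 libraries, gave the same order for the 2 genes that passed the filter, and both were called, where 5.85% of 8679 genes were (2.27% higher in medial cells and 3.58% lower). Ano1 stood at 84.0, 76.0 and 84.1 CPM in lateral and 28.5, 25.2 and 26.1 CPM in medial cells (-1.32 ± 0.17, adjusted p = 0.000207). Slc12a2 stood at 265, 218 and 122 CPM in lateral and 761, 633 and 349 CPM in medial cells (1.47 ± 0.09, adjusted p = 7.83e-08). The third library was the lowest for Slc12a2 in medial and lateral cells alike, and the groups still did not overlap (13.1% of all genes did not); without the library block Slc12a2 had an adjusted p of 0.0528. P2ry1 was at 10.7 ± 2.29 CPM in lateral and 2.80 ± 1.67 CPM in medial cells at E16, below the filter, and did not pass when the filter was dropped (adjusted p = 0.321).

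**Figure D2:**
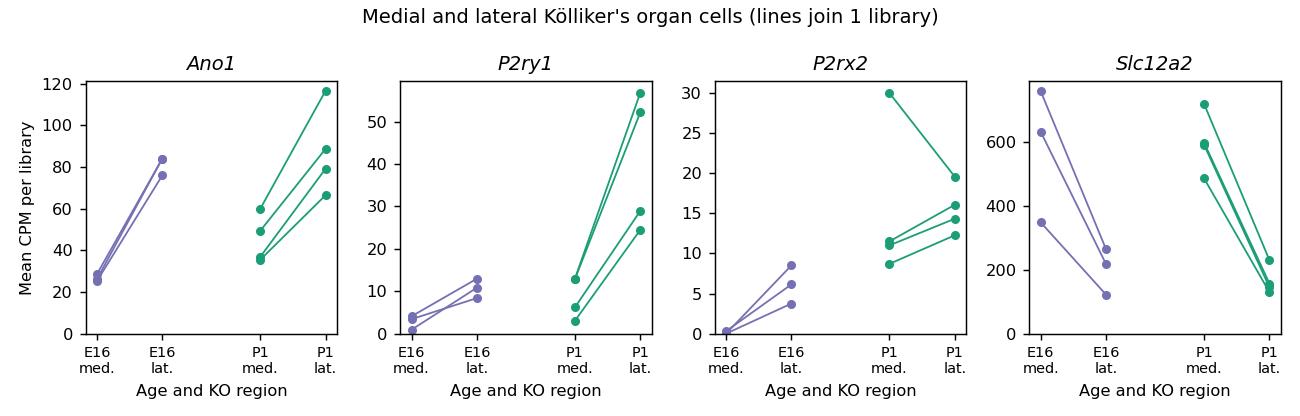
Mean CPM (vertical axis) in medial and lateral Kölliker's organ cells at E16 (3 libraries) and P1 (4 libraries), with a line joining the 2 values of 1 library, for Ano1, P2ry1, P2rx2 and Slc12a2. At P1 every line for Ano1 and P2ry1 goes up from medial to lateral and every line for Slc12a2 goes down, while the P2rx2 means are 15.3 and 15.6 CPM.

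Whether the medial to lateral difference itself changed from E16 to P1 was tested in 1 fit over both ages. Only P2ry1 passed, by a narrow margin, with its difference more lateral at P1 by 0.72 ± 0.18 in size (-0.72 as medial minus lateral; adjusted p = 0.0498), where 4.24% of 8512 genes were called (2.6% higher and 1.64% lower). P2ry1 passed the filter through the lateral cells, where it was high, and P2rx2 through P1, so that these entries were set in part by the levels compared. That call was lost when any 1 of the 4 P1 libraries was left out (adjusted p = 0.105 to 0.132) and without E16 library 2 (0.107). For P2ry1 the change shrank to -0.21 with the stricter gate (adjusted p = 0.752) and to -0.45 with a pseudocount of 1 CPM (0.564), and its call was also lost with no filter (0.124) and without the block (1). As plain ratios the P2ry1 level in lateral cells was 3.82 times the medial one at E16 and 4.63 times at P1. Ano1 had a change of 0.50 ± 0.13 (adjusted p = 0.0567), Slc12a2 of 0.34 ± 0.10 (adjusted p = 0.0742) and P2rx2 of 0.59 ± 0.22 (adjusted p = 0.152). Ano1 passed with a pseudocount of 1 CPM (0.64, adjusted p = 0.0455), with pooled UMIs (0.77, adjusted p = 0.00562) and without E16 library 1 (adjusted p = 0.0350), and Slc12a2 without P1 library 4 (adjusted p = 0.0348). P2rx2 reached 2.48 with a pseudocount of 1 CPM (adjusted p = 0.0116); at E16 it was at 6.14 ± 2.38 CPM in lateral cells (30 UMIs) and at 0.103 ± 0.179 CPM in medial cells (1 UMI).

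At E14 and P7, where no test of medial against lateral cells was made, the order was as follows. Ano1 was 60.9 ± 26.6 CPM in lateral and 7.23 ± 0.328 CPM in medial cells at E14, and 744 ± 7.56 against 414 ± 6.46 CPM at P7 (n = 2 libraries at each age). The lateral level was thus 8.42 times the medial one at E14 and 3.05 times at E16, and then 1.93 (P1) and 1.80 times (P7). Slc12a2 was 3.84 times higher in medial than in lateral cells at E14 and 2.88 times at E16, then 3.62 times (P1) and 1.34 times (P7), where the ranges of the 2 libraries were 52.0 to 65.0 CPM in medial and 37.0 to 50.6 CPM in lateral cells. P2ry1 at E14 averaged 2.93 CPM in medial and 1.01 CPM in lateral cells, from 6 UMIs in each, too few to give an order, and at P7 it was 56.7 and 112 CPM. The medial marker Crabp1 was found in only 0.399% of Kölliker's organ cells at P7, so the split at that age rests on fewer markers. The split left 1043 of 2484 Kölliker's organ cells unplaced at E14, 1685 of 4687 at E16, 2262 of 10113 at P1 and 1369 of 2256 at P7. The ratios thus rest on different shares of the cells at each age, and the effect of this was not tested.

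Inner phalangeal cells, the supporting cells around the inner hair cells, were gated by Matn4, Slc1a3, Fabp7 and Prss23. The paper places Fabp7 in cells right beside the organ of Corti, and Prss23 in supporting cells and some Kölliker's organ cells. At P1 463 cells passed this gate, and 374 cells lay near its score cut. In the cells that passed, Ano1 was the highest of any class at P1. It stood at 192, 195, 212 and 148 CPM in the 4 libraries, above lateral Kölliker's organ in every one, and against all other cells it was higher by 1.79 ± 0.15 (adjusted p = 1.13e-08). Of 6 genes tested in this comparison 5 differed, where 21.8% of 8590 genes did (11% higher and 10.8% lower); Entpd2 and P2ry2 passed the filter only through this class. Entpd2, an ectonucleotidase that turns ATP to ADP, stood at 21.4, 18.7, 14.4 and 29.1 CPM (56 UMIs in all) against 1.39 ± 0.322 CPM in other cells, higher by 1.42 ± 0.19 (adjusted p = 7.89e-06). P2ry2, a Gq-coupled receptor for ATP and UTP, was higher at 32.5 ± 21.9 against 5.31 ± 1.77 CPM (1.35 ± 0.21, adjusted p = 5.42e-05). P2rx2 was higher too, at 44.4 to 47.0 CPM in the 4 libraries against 17.4 ± 7.87 CPM (1.07 ± 0.18, adjusted p = 0.000102). Slc12a2 was lower at 29.2 ± 15.1 against 342 ± 70.9 CPM (-3.21 ± 0.16, adjusted p = 4.41e-12). P2ry1 was 25.4 ± 5.33 against 16.9 ± 8.20 CPM and did not pass (adjusted p = 0.0997; 0.0213 with UMIs pooled over the class).

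In pillar and Deiters' cells, the supporting cells of the tunnel and the outer hair cells, P2ry2 and P2rx2 were high and the chloride genes low. All 4 genes tested differed, where 40.3% of 8703 genes did (22.3% higher and 18% lower); P2ry2 passed the filter only through this class. P2ry2 stood at 33.9, 28.4, 62.3 and 40.5 CPM in the 4 libraries against 3.81 ± 1.39 CPM elsewhere, higher by 1.86 ± 0.14 (adjusted p = 1.99e-06). P2rx2 stood at 77.3, 28.4, 46.2 and 40.0 CPM against 16.2 ± 6.82 CPM, higher by 1.11 ± 0.12 (adjusted p = 3.66e-05). The groups did not overlap for either receptor, as held for 19.6% of all genes. Ano1 was lower at 12.5 ± 10.1 CPM (-1.62 ± 0.21, adjusted p = 0.000106), and Slc12a2 was lower at 40.4 ± 14.2 CPM (-2.86 ± 0.16, adjusted p = 2.40e-07). Nt5e, which turns AMP to adenosine, averaged 10.2 ± 3.19 CPM against 2.05 CPM elsewhere and was higher once the filter was dropped (adjusted p = 0.0172). In that fit P2ry1, at 0.913 against 18.3 CPM, and P2rx3, at 0.227 against 3.86 CPM, were lower (adjusted p = 0.00341 and 0.00438).

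Hensen's cells, lateral to the outer hair cells, had the highest P2rx2 mean at P1. It stood at 110, 132, 153 and 93.5 CPM, from 127 UMIs in all, against 17.3 ± 7.61 CPM in other cells, a difference of 2.29 ± 0.26 (adjusted p = 1.24e-05). In this comparison 3 of 4 genes differed, where 14.8% of 8568 genes did (6.08% higher and 8.71% lower); Ano1 (-1.99 ± 0.33, adjusted p = 0.000513) and Slc12a2 (-3.27 ± 0.26, adjusted p = 3.22e-07) were the other two, and both were lower. Ano1 passed the filter only through the other cells and P2ry2 only through Hensen's cells. P2ry2 ranged from 0 to 47.4 CPM over the 4 libraries and did not pass (adjusted p = 0.309).

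Claudius and outer sulcus cells, at the lateral edge of the duct floor, had the highest Nt5e. It stood at 52.2, 11.05, 12.4 and 43.7 CPM in the 4 libraries, from 44 UMIs, against 2.20 ± 1.51 CPM elsewhere (1.55 ± 0.35, adjusted p = 0.00451). The low libraries 2 and 3 held 14 and 11 such cells and the others 76 and 39, and the call was lost without library 1 (adjusted p = 0.0853), without library 4 (0.0618), with a stricter gate (0.126) and with no filter (0.0602). Ano1 (-1.98 ± 0.30, adjusted p = 0.000113) and Slc12a2 (-2.72 ± 0.19, adjusted p = 1.03e-08) were lower there, though with Leiden clusters Ano1 was at -0.73 and not called (adjusted p = 0.0682), so that 3 of 4 genes tested differed, where 14.9% of 8755 genes did (6.67% higher and 8.21% lower). Nt5e passed the filter only through this class and Ano1 only through the other cells. P2rx2 was 10.3 ± 11.3 against 18.3 ± 7.85 CPM and did not pass the test (-0.60, adjusted p = 0.255).

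Interdental cells, which secrete the tectorial membrane at the medial edge, were lower than other cells in all 3 genes tested, where 28% of 8515 genes differed (9.89% higher and 18.1% lower). Slc12a2 was 143 ± 55.7 against 340 ± 69.8 CPM (-1.26 ± 0.13, adjusted p = 2.49e-06), Ano1 1.99 ± 1.96 against 54.4 ± 9.40 CPM (-2.43 ± 0.17, adjusted p = 2.25e-08) and P2ry1 3.37 ± 6.08 against 17.8 ± 8.40 CPM (-1.09 ± 0.20, adjusted p = 0.000520); the latter pair passed the filter only through the other cells. The interdental Slc12a2 mean was still the highest of the classes described outside Kölliker's organ. Hair cells came next, at 74.0 ± 33.0 CPM. Roof cells were lower in Ano1 (4.83 ± 3.43 CPM, adjusted p = 0.00169) and Slc12a2 (43.0 ± 32.6 CPM, adjusted p = 2.00e-05), 2 of 4 genes tested, where 14.2% of 8853 genes differed (5.72% higher and 8.46% lower). Ano1 and P2ry1 passed the filter only through the other cells, and P2ry1 was 8.82 ± 6.59 against 17.3 ± 8.20 CPM (adjusted p = 0.429). P2rx2 in roof cells was 60.9, 117, 0 and 47.3 CPM in the 4 libraries and did not pass (adjusted p = 0.326). The library at 0 held only 7 roof cells, and without it P2rx2 was higher than in other cells (1.53, adjusted p = 0.00613).

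Hair cells were the site of P2rx3, an ATP-gated cation channel known from sensory neurons. It stood at 34.8, 54.4, 43.8 and 54.2 CPM in the hair cells of the 4 P1 libraries against 0.169 ± 0.140 CPM in all other cells (2.47 ± 0.14, adjusted p = 1.00e-07), with no overlap, as held for 43.6% of all genes. All 4 genes tested differed between hair cells and the rest, where 69.6% of 9140 genes did (40.5% higher and 29.1% lower), the largest background of any comparison here; P2rx3 passed the filter only through hair cells, and Ano1 and P2rx2 only through the other cells. Ano1 was lower at 3.45 ± 1.58 against 56.2 ± 10.1 CPM (-2.29 ± 0.13, adjusted p = 1.27e-07), Slc12a2 at 74.0 ± 33.0 against 353 ± 78.4 CPM (-2.16 ± 0.17, adjusted p = 1.33e-06) and P2rx2 at 9.34 ± 6.90 against 19.0 ± 7.90 CPM (-0.62 ± 0.17, adjusted p = 0.00661; 0.0805 without the library block). Relative to Kölliker's organ cells, hair cells had 5.80% of the Ano1 level and 17.4% of the Slc12a2 level, beside 7.81% of the Kölliker's organ marker level. P2ry1 was at 0.384 CPM in hair cells.

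Inner and outer hair cells were compared at P1 in the same libraries. P2rx3 stood at 16.1, 50.8, 36.9 and 47.1 CPM in outer and 9.40, 32.3, 17.7 and 8.25 CPM in inner hair cells. It was higher in the outer cells of every library, by 0.84 ± 0.29, but just missed the threshold (adjusted p = 0.0524), and with Leiden clusters in place of the gate it passed (1.48, adjusted p = 8.66e-06), as it did without library 1 (0.98, adjusted p = 0.0376). The gate left 518 hair cells placed as neither, and these held 233 of the 337 P2rx3 UMIs of hair cells at P1, at 62.7 ± 7.30 CPM, above the P2rx3 means of both the outer (37.7 ± 15.5 CPM) and the inner cells (16.9 ± 11.1 CPM). The paper classed most P1 hair cells as outer, and the gate placed far fewer as outer. The outer group tested may thus leave out many outer cells, and the type of the unplaced cells was not tested. At E16 P2rx3 was at 147 ± 37.9 CPM in outer and 75.8 ± 22.9 CPM in inner hair cells (n = 3, no test made). P2rx2 was 17.4 ± 12.4 CPM in outer and 2.12 ± 2.55 CPM in inner hair cells, below the filter (adjusted p = 0.0985 with no filter). Neither of the 2 genes tested was called by limma, where 10% of 8884 genes were (5.54% higher in outer cells and 4.47% lower), and 1 of the 2 had an unadjusted p under 0.05; Slc12a2 was 69.1 ± 35.6 and 68.6 ± 25.1 CPM (adjusted p = 0.960).

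The order of the classes at P1 was clear for some genes and not for others. For Ano1 the order inner phalangeal, lateral and medial Kölliker's organ was separated at each step, with ranges that did not overlap, and below medial Kölliker's organ the next class was pillar and Deiters' cells, from which neighbouring ranges overlapped step by step. For P2ry1 the ranges of lateral Kölliker's organ (24.5 to 56.8 CPM) and inner phalangeal cells (18.1 to 30.5 CPM) overlapped, and both lay above the ranges of the other classes. For P2rx2 the 4 highest classes, Hensen's, roof, pillar and Deiters' and inner phalangeal cells, overlapped step by step, but only through the wide range of roof cells (0 to 117 CPM). The Hensen's range, 93.5 to 153 CPM, lay above those of pillar and Deiters' cells (28.4 to 77.3 CPM) and inner phalangeal cells (44.4 to 47.0 CPM). For P2ry2 the ranges of pillar and Deiters', inner phalangeal, Hensen's and Claudius and outer sulcus cells overlapped step by step. For Slc12a2 medial Kölliker's organ, at 487 to 721 CPM, stood above lateral Kölliker's organ, at 130 to 231 CPM, which overlapped interdental cells, at 66.6 to 199 CPM. Between medial Kölliker's organ and pillar and Deiters' cells the Ano1 ranges, 35.5 to 60.0 and 2.89 to 26.5 CPM, did not overlap.

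The genes whose P1 pattern was most like that of each member were found over 40 values (10 classes in 4 libraries), as a description; the values share libraries and the markers of the gate were left out. Ano1 was most like Gjb6, the gene for connexin 30 (Pearson r = 0.94), and next Gad1 (0.90) and Cpa6 (0.89). P2ry1 was most like Podn (0.87), Gad1 (0.84) and B3galt2 (0.83), and Slc12a2 like Iigp1 (0.87), Tmem117 (0.85) and Serpinb5 (0.83). P2rx3 followed Dll1 (0.97), Grk1 (0.97) and Tmem173 (0.96). P2rx2 had the weakest likeness, with Dpp4 (0.76), Dclk1 (0.74) and Ctsc (0.73), and P2ry2 followed Ptprk (0.81), Lacc1 (0.79) and Sox13 (0.78). Entpd2 followed Ednrb (0.87), Sp5 (0.87) and Lox (0.85), and Nt5e followed Cd44 (0.85), Ankrd6 (0.80) and Adgra3 (0.73).

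Age was the second axis. Because every cell was scaled to its own total, values can be set side by side across the 4 tables, but every library holds a single age and each age has a table of its own, so that differences between libraries and the age cannot be fully told apart. Neighbouring steps share the libraries of an age. The replicate numbers of different ages mark no shared animals.

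In Kölliker's organ cells Ano1, P2ry1 and P2rx2 rose and Slc12a2 fell between P1 and P7. Ano1 stood at 31.4 and 24.6 CPM at E14, 40.6, 39.3 and 45.4 CPM at E16, 54.7, 45.5, 57.3 and 80.4 CPM at P1 and 662 and 593 CPM at P7. The P7 libraries held 3881 and 3063 Ano1 UMIs in these cells. The rise from P1 to P7 was 3.22 ± 0.20 (adjusted p = 1.19e-07), and neither of the earlier steps passed (E14 to E16, adjusted p = 0.192; E16 to P1, adjusted p = 0.148). Medial and lateral cells both showed it, from 45.4 to 414 CPM in medial and from 87.8 to 744 CPM in lateral cells.

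P2ry1 climbed over 2 steps. It stood at 2.29 and 1.35 CPM at E14, 5.31, 4.88 and 5.52 CPM at E16, 30.9, 11.3, 13.7 and 31.4 CPM at P1 and 66.3 and 73.9 CPM at P7. It rose from E16 to P1 by 1.00 ± 0.22 (adjusted p = 0.0103; 0.0514 without E16 library 2) and from P1 to P7 by 1.40 ± 0.25 (adjusted p = 0.00123), and the groups did not overlap at either step, as held for 21.3% and 43.9% of all genes. P2rx2 stood at 1.60 and 2.55 CPM at E14, 0.944, 2.35 and 2.76 CPM at E16, 25.2, 9.09, 11.3 and 12.4 CPM at P1 and 93.9 and 82.8 CPM at P7. It rose by 0.99 ± 0.19 from E16 to P1 (adjusted p = 0.00426) and by 2.05 ± 0.21 from P1 to P7 (adjusted p = 1.47e-05).

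Slc12a2 fell while these 3 genes rose. It stood at 186 and 208 CPM at E14, 520, 465 and 247 CPM at E16, 322, 424, 438 and 513 CPM at P1 and 44.3 and 54.5 CPM at P7. The fall from P1 to P7 was -2.86 ± 0.27 (adjusted p = 5.77e-06) and was seen in medial cells (600 to 58.5 CPM) and in lateral cells (166 to 43.8 CPM). At P7 the level in Kölliker's organ was close to that in hair cells, 49.4 ± 7.24 and 49.8 ± 10.0 CPM. The earlier step from E14 to E16 just missed the threshold (0.96 ± 0.29, adjusted p = 0.0524), and without the third E16 library it passed (1.28, adjusted p = 0.00686).

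Of the 4 genes tested, none was called by limma from E14 to E16 (9.35% of 8592 genes were, 3.28% higher and 6.06% lower; 1 of the 4 had an unadjusted p under 0.05), 2 were called from E16 to P1 (14.2% of all genes, 6.96% higher and 7.25% lower) and 4 from P1 to P7 (25.1%, 11.2% higher and 13.9% lower). P2ry1 and P2rx2 were under 10 CPM at E14 and E16 and passed the filter through the later ages. They did not pass the test from E14 to E16 (adjusted p = 0.404 and 0.987), nor did Slc12a2 from E16 to P1 (0.09 ± 0.24, adjusted p = 0.827). Among the genes below the filter, P2ry2 went from 2.06 to 23.4 CPM between P1 and P7 (17.6 and 29.2 CPM in the 2 P7 libraries, 258 UMIs) and rose in the fit with no filter (adjusted p = 9.43e-06). P2rx3 went from 0.136 to 2.1002 CPM and rose in that fit too (adjusted p = 0.000495, from 24 UMIs at P7), while Entpd2 and Nt5e did not pass (adjusted p = 0.248 and 0.830). P2rx3, Entpd2 and Nt5e were at or below 2.57 CPM in every Kölliker's organ library at every age but for Nt5e in P1 library 4, at 3.71 CPM. The summed mesenchymal markers in Kölliker's organ cells ranged from 8.92 to 29.97 CPM at P1 and from 102 to 133 CPM at P7, and the glial markers from 102 to 133 CPM at P1 and from 60.7 to 71.5 CPM at P7. Cells gated as mesenchymal at P7 had 17.8 ± 3.78 CPM of Ano1 and cells gated as glia 21.1 ± 29.8 CPM, below the Kölliker's organ level.

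**Figure D3:**
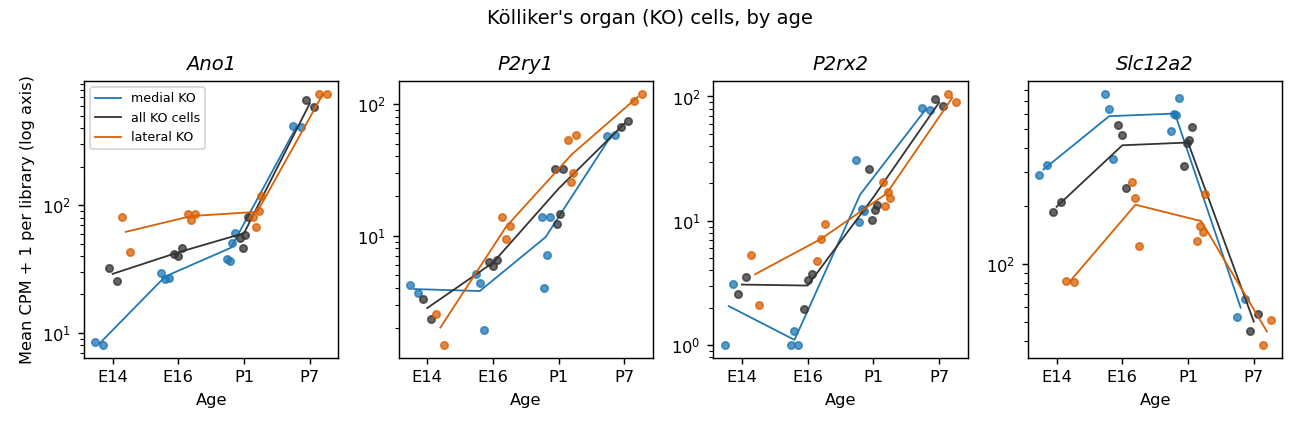
Mean CPM + 1 (log axis) per library in medial, lateral and all Kölliker's organ cells (KO) at E14 (2 libraries), E16 (3), P1 (4) and P7 (2); points are libraries and lines join the means. Ano1 climbs to 627 CPM at P7, P2ry1 and P2rx2 to 70.1 and 88.4 CPM, and Slc12a2 drops from 424 to 49.4 CPM between P1 and P7.

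In hair cells P2rx3 fell from E16 to P1 and from P1 to P7, and P2rx2 rose from P1 to P7. P2rx3 stood at 68.1 and 64.9 CPM at E14 (from 47 hair cells), 70.9, 114 and 186 CPM at E16, and 34.8 to 54.4 CPM at P1. At P7 no UMI was found among 257 hair cells that held 1877435 UMIs, which allows a level of up to 1.60 CPM (3 UMIs over the group, counting error only). P7 was therefore at least 29.3-fold lower than P1. The fall was called from E16 to P1 (-1.16 ± 0.29, adjusted p = 0.00837; 0.0545 without E16 library 3, its highest) and from P1 to P7 (adjusted p = 1.54e-05). In Kölliker's organ cells P2rx3 was at 2.57 and 1.63 CPM at P7, from 24 UMIs.

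P2rx2 in hair cells stood at 17.9, 7.90, 1.17 and 10.4 CPM at P1 and 84.2 and 87.9 CPM at P7, a rise of 2.39 ± 0.33 (adjusted p = 2.53e-05). At P7 outer hair cells had 145 and 112 CPM and inner hair cells 12.6 and 9.18 CPM; no test of that difference was made. Potassium channel genes that were high in pillar and Deiters' cells at P7 moved with it in the means, with no test made: in hair cells Kcnj10 went from 0.320 ± 0.375 to 35.2 ± 21.5 CPM and Kcnj16 from 0.243 ± 0.288 to 46.1 ± 44.7 CPM, while the summed pillar and Deiters' markers of the gate were at 243 to 393 CPM at P1 and at 371 and 479 CPM at P7. In pillar and Deiters' cells themselves at P7 Kcnj10 was at 158 ± 19.4 CPM, Kcnj16 at 254 ± 18.3 CPM, P2rx2 at 328 ± 78.1 CPM and the summed markers at 3932 and 4033 CPM. The part of pillar and Deiters' RNA in the P2rx2 value was not tested. Ano1 in hair cells rose from 3.45 ± 1.58 to 62.8 ± 11.997 CPM (2.43 ± 0.29, adjusted p = 5.22e-06), and here the inner cells were high, at 157 and 167 CPM against 12.3 and 9.01 CPM in the outer ones. The inner hair cells at P7 had 25.8% of the Ano1 level of Kölliker's organ cells, with 5.51% of their marker level; the summed inner phalangeal markers were 251 CPM in the inner and 50.2 CPM in the outer hair cells. The part of inner phalangeal RNA in that value was not tested. From E16 to P1, 1 of 4 genes tested in hair cells was called (18.2% of 9033 genes were, 11.3% higher and 6.89% lower), and from P1 to P7 3 of 4 were (20.4%, 8.81% higher and 11.6% lower). At the latter step Ano1 and P2rx2 were under 10 CPM at P1 and P2rx3 at P7. At the earlier step Ano1 was under 10 CPM at P1 and P2rx2 at both ages, and P2rx2 passed the filter through P7. From E16 to P1 Ano1 went from 10.4 ± 4.91 to 3.45 ± 1.58 CPM (adjusted p = 0.120) and P2rx2 from 2.83 ± 2.71 to 9.34 ± 6.90 CPM (adjusted p = 0.206). Slc12a2 in hair cells did not pass at either step (adjusted p = 0.507 and 0.489).

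**Figure D4:**
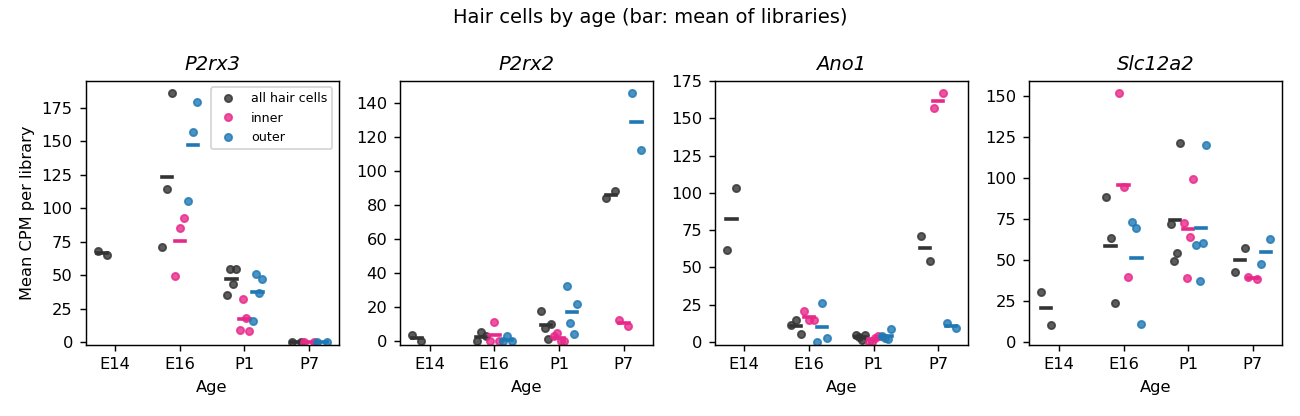
Mean CPM per library in all, inner and outer hair cells by age for P2rx3, P2rx2, Ano1 and Slc12a2; points are libraries and bars their means, and the inner and outer cells of E14 are left out because they were too few. P2rx3 is at 0 in both P7 libraries, P2rx2 is high in outer hair cells at P7 and Ano1 in inner hair cells at P7.

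Outside Kölliker's organ and hair cells the later ages were described with no test. In pillar and Deiters' cells P2rx2 went from 48.0 ± 20.9 CPM at P1 to 383 and 273 CPM at P7, the highest level of that gene in the series, and P2ry2 from 41.3 ± 14.8 CPM to 49.5 and 93.7 CPM. At E14 and E16 the same marker gate was taken to stand for lateral prosensory cells, so its values there cannot be read as those of pillar and Deiters' cells. The paper finds inner pillar cells as a cluster of their own at E16, with Fgfr3 and Prox1, which are markers of this gate. The E16 cells may thus include some pillar cells. The 53 cells that passed it at E14 held 47.6 and 36.3 CPM of P2rx2, from 12 UMIs. At E16 the 283 such cells held 18.1 ± 0.653 CPM, from 14 UMIs. Nt5e in pillar and Deiters' cells was 10.2 ± 3.19 CPM at P1 and 31.4 and 38.8 CPM at P7. No Nt5e UMI was found in the lateral prosensory cells of E14, which allows up to 10.4 CPM (3 of 287588 UMIs, counting error only), above the P1 mean. The E16 cells of the same gate held 0.492 ± 0.852 CPM of Nt5e, from 1 of 867242 UMIs, below the P1 mean. Ano1 in inner phalangeal cells was 217 ± 22.7 CPM at E16 and 187 ± 27.1 CPM at P1, and at P7 the 64 cells that passed this gate, at 81.3% of the Kölliker's organ marker level, held 1005 and 552 CPM.

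The other genes of the pathway, 72 on a list that covered 9 roles, were tested in the same fits. Between 18 and 25 of them passed the filter in a comparison. The connexin genes Gjb2 and Gjb6, whose proteins form the hemichannels that release ATP, were lateral at P1 like Ano1 and P2ry1. At P1 Gjb6 was 61.4 ± 37.5 CPM in medial and 274 ± 121 CPM in lateral Kölliker's organ (-2.03 ± 0.08, adjusted p = 1.20e-08) and Gjb2 562 ± 109 and 1252 ± 145 CPM (-1.15 ± 0.08, adjusted p = 1.04e-06). At E16 the 2 genes differed in the same direction (Gjb6 -1.56 ± 0.18, adjusted p = 8.82e-05; Gjb2 -1.35 ± 0.07, adjusted p = 4.56e-08). The other ages were not tested. At E14 both means were higher in lateral cells. At P7 Gjb2 was 1890 ± 271 CPM in medial and 1749 ± 164 CPM in lateral cells, and Gjb6 217 ± 42.2 and 240 ± 26.4 CPM. Of 20 pathway genes tested between medial and lateral cells at P1, 10 were higher in lateral cells (50% of them, against 13% of all genes) and 1 (5% against 24.4%), the G protein gene Gna11, in medial cells (0.23 ± 0.08, adjusted p = 0.0475). At E16 4 of 21 were higher in lateral cells (19% against 3.58% of all genes) and 1 (4.76% against 2.27%), Enpp2, in medial cells (1.43 ± 0.24, adjusted p = 0.00192). Enpp2 passed the filter only through the medial cells. The median of the pathway genes at P1 was -0.22 against 0.08 over all genes tested.

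Both connexin genes were higher in inner phalangeal cells than in the other cells. Gjb2 was 3823 ± 490 against 635 ± 68.6 CPM (2.57 ± 0.06, adjusted p = 1.31e-16) and Gjb6 818 ± 350 against 103 ± 52.3 CPM (2.89 ± 0.09, adjusted p = 3.64e-15). In this class 9 of 21 pathway genes tested were higher (42.9%, against 11% of all genes) and 0 lower (10.8% of all genes). In hair cells Gjb2 was lower, at 32.9 ± 7.9996 against 797 ± 59.7 CPM (-4.25 ± 0.12, adjusted p = 1.74e-09), while Itpr3, a calcium-store release channel, was higher at 108 ± 19.2 against 0.799 ± 0.403 CPM (3.44 ± 0.13, adjusted p = 7.46e-09). Itpr3 passed the filter only through hair cells. In hair cells 6 of 18 pathway genes tested were higher (33.3%, against 40.5% of all genes) and 6 lower (33.3% against 29.1%), near the background.

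Against all cells outside, Kölliker's organ at P1 had 4 of 24 pathway genes higher (16.7%, against 16.4% of all genes) and 6 lower (25% against 34.8%), near or below the background. The nucleoside transporter gene Slc29a1 was 117 ± 47.0 against 50.7 ± 18.6 CPM (1.02 ± 0.08, adjusted p = 3.79e-05) and the sodium pump subunit gene Atp1b1 799 ± 110 against 396 ± 41.0 CPM (0.99 ± 0.07, adjusted p = 1.73e-05). Itpr3 was lower at 0.461 ± 0.281 against 31.8 ± 12.1 CPM (-1.95 ± 0.16, adjusted p = 4.01e-05), and passed the filter only through the cells outside.

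Among the lateral classes, pillar and Deiters' cells had 9 of 21 pathway genes higher (42.9%, against 22.3% of all genes) and 6 lower (28.6% against 18%). The potassium channel gene Kcnj10 was 24.0 ± 8.90 against 1.76 ± 1.16 CPM (1.502 ± 0.15, adjusted p = 1.82e-05) and passed the filter only through this class. Atp1b1 was lower at 147 ± 45.9 against 722 ± 78.1 CPM (-2.27 ± 0.14, adjusted p = 5.45e-07). Enpp1, an ectonucleotidase that makes pyrophosphate from ATP, was higher in Claudius and outer sulcus cells (172 ± 86.7 against 3.34 ± 1.20 CPM; 3.65 ± 0.28, adjusted p = 3.86e-08) and in Hensen's cells (65.2 ± 30.9 against 4.27 ± 1.95 CPM; 2.27 ± 0.33, adjusted p = 0.000177). In each of these comparisons Enpp1 passed the filter only through the class in which it was high. Interdental cells had 1 of 22 pathway genes higher (4.55%, against 9.89% of all genes) and 8 lower (36.4% against 18.1%), with Gjb2 at 78.3 ± 13.1 against 769 ± 41.2 CPM (-3.15 ± 0.10, adjusted p = 5.30e-12).

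Along age, Kölliker's organ had 1 of 21 pathway genes higher (4.76%, against 3.28% of all genes) and 0 lower (6.06% of all genes) from E14 to E16. From E16 to P1 5 were higher (23.8% against 6.96%) and 1 lower (4.76% against 7.25%), and from P1 to P7 5 were higher (23.8% against 11.2%) and 2 lower (9.52% against 13.9%). Plcb4, a phospholipase acting below Gq-coupled receptors, rose from 10.1 ± 2.24 to 38.3 ± 9.62 CPM between P1 and P7 (1.26 ± 0.18, adjusted p = 0.000202). Slc29a1 fell with Slc12a2, from 117 ± 47.0 to 14.3 ± 0.207 CPM (-2.27 ± 0.39, adjusted p = 0.000805), and Gnaq fell from 23.1 ± 3.38 to 12.4 ± 1.85 CPM (-0.56 ± 0.18, adjusted p = 0.0372).

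In hair cells Itpr3 rose between E16 and P1, from 30.2 ± 8.70 to 108 ± 19.2 CPM (1.57 ± 0.25, adjusted p = 0.000268), and fell to 3.52 ± 0.885 CPM at P7 (-3.12 ± 0.29, adjusted p = 2.34e-07). Slc12a7, a potassium and chloride cotransporter gene, rose from 42.6 ± 3.19 to 132 ± 0.432 CPM between P1 and P7 (1.43 ± 0.26, adjusted p = 0.000501) and Ano10 from 8.78 ± 3.48 to 68.4 ± 17.4 CPM (2.06 ± 0.31, adjusted p = 7.55e-05), while Panx1, which encodes a channel that can release ATP, fell from 28.0 ± 4.69 to 7.10 ± 2.34 CPM (-1.15 ± 0.28, adjusted p = 0.00532). Ano10 was under 10 CPM at P1, and Itpr3 and Panx1 were at P7. Of 19 pathway genes tested, 5 rose from P1 to P7 (26.3%, against 8.81% of all genes) and 2 fell (10.5% against 11.6%). At the step before 3 rose (15.8% against 11.3%) and 1 fell (5.26% against 6.89%).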

How the data were processed

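The deposited tables, 1 for each age, hold natural log values made by the authors: each gene's share of a cell's UMIs was multiplied by 10000, 1 was added and the natural log taken. Reads were processed by the authors with Cell Ranger 2.1.1 on the mm10 genome and filtered and normalized with Seurat 2.0. The values were turned back to shares and given as CPM, and UMIs worked back from them were whole within 2% for 100% of values above 0. Cells were assigned to classes by the summed level of fixed markers (score minimum 0.3 or 0.4, at least 1.5 times the next class; split cut 0.5 in mean z), a rebuilt annotation whose thresholds were set after the marker distributions were seen. The lateral Kölliker's organ markers rest on general knowledge. Cells passing more than 1 gate were left out of the classes. The groups of all other cells held every cell of a library outside the class, those without a class included. Scrublet marked 0.0355% to 2.59% of cells per library, under 0.5% in all E14 and E16 libraries and in P1 library 4 (0.143% of 5598 cells), where it did not work; doublets were kept and their removal tried as an alternative.

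Mean CPM per class and library (at least 5 cells; 20 hair cells in the age fit, which left out E14 library 1) was tested on log2(CPM + 10) with limma 3.58.1 in R 4.3.3, with a mean trend, the library as a block within an age and Benjamini-Hochberg adjustment over all genes averaging 10 CPM or more. Cells were handled with scanpy 1.11.5. The fit was tested on simulated data. Libraries are the replicates. Within an age, and for the change of the medial to lateral difference, p-values measure the spread of the differences within libraries. Between ages they measure the spread between these collections. In all fits limma drew part of the estimate of the spread from other genes. The members and lists were chosen with earlier results of these data known. Each of the 8 members is named in every comparison whose filter it passed, and of 72 other pathway genes the 2 largest rises and 2 largest falls past the threshold could be named; some of these are not reported here. Alternatives were a pseudocount of 1 CPM, no filter, pooled UMIs, a stricter gate, Leiden clusters, removal of called doublets, the block left out or added, and leaving out each library. Intervals and limits cover counting error only. Gene positions come from GENCODE on GRCm38; the promoters of P2rx2, P2rx3 and Slc12a2 were not used here.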

Additional observations from a re-analysis of the deposited data

Results flagged for a closer look

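P2rx2 in medial Kölliker's organ at P1 was picked out because 1 of the 4 libraries stood apart: library 1 was at 30.01 CPM, from 172 UMIs, and the other 3 at 8.71 to 11.5 CPM. Of 39 P1 groups of 4 libraries looked at, chance alone would pick out about 1 in 20. The same library was also the highest for P2rx2 in lateral Kölliker's organ (19.6 CPM), in pillar and Deiters' cells (77.3 CPM) and in hair cells. It was not the highest in Hensen's or roof cells. Without it the medial minus lateral difference of P2rx2 was -0.25 (limma adjusted p = 0.0848) in place of -0.08 (0.659), and the difference between pillar and Deiters' cells and other cells was 1.06 (0.000345) in place of 1.11.

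The medial minus lateral difference of P2ry1 differed between P1 and E16 by -0.72 ± 0.18 (limma interaction, adjusted p = 0.0498), where P2ry1 passed the filter on low values through the lateral cells, in which it was high. The groups behind it were 8.75 ± 4.96 and 40.6 ± 16.2 CPM in medial and lateral cells at P1, and 2.80 ± 1.67 and 10.7 ± 2.29 CPM at E16. The P2ry1 direction was the same under all alternatives run, but the size fell to -0.21 with the stricter gate (adjusted p = 0.752) and to -0.45 with a pseudocount of 1 CPM (0.564), and the adjusted p ranged from 0.0222 to 1.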

How the results depend on the processing

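No called result changed direction; uncalled differences of Slc12a2 and P2rx2 changed sign under some alternatives. Of the counts of called members recomputed, 170 stayed within 1.5 times the reported count and 28 did not, and of single values 719 kept their side of the threshold, 21 lost significance and 11 gained it. With no filter on low values, more members could be tested and 7 of 8 were called for Kölliker's organ against the rest (24.8% of all genes in that fit), 5 (12.3%) for medial against lateral cells at P1, 8 (39.3%) for hair cells, 7 (18.7%) for pillar and Deiters' cells, 7 (13.7%) for Hensen's cells, 6 (12.2%) for interdental cells, 4 (14.6%) for roof cells, 6 (10.5%) for hair cells from P1 to P7 and 0 (0.713%) for the change of that difference between E16 and P1. For the other alternatives the share of all genes called was not computed, so the counts that follow cannot be read against a background. Without the replicate block 1 was called between medial and lateral cells at E16 and 0 for the change of the medial to lateral difference. For outer against inner hair cells 1 was called with pooled UMIs, a member other than P2rx3 and Slc12a2, and 1 with Leiden clusters, P2rx3. The change of the medial to lateral difference gave 2 with a pseudocount of 1 CPM, 2 with pooled UMIs and 0 with the stricter gate. The cause was not tested. Leaving out 1 library gave 0 to 1 for outer against inner hair cells, 0 to 1 for Kölliker's organ from E14 to E16, 1 to 2 from E16 to P1, 0 to 1 for hair cells from E16 to P1 and 0 to 2 for the change of the medial to lateral difference.

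Replicate numbers did not pair the ages: same-numbered libraries had correlations of -0.283 to 0.05996 in their deviations over 8981 genes. With the replicate number as a block, 1 member, Slc12a2, was called from E14 to E16 (1.08, adjusted p = 0.0475 by limma), and the counts from E16 to P1 stayed at 2 in Kölliker's organ and 1 in hair cells. The share of all genes called in these fits was not computed, so these counts have no background beside them. For the step from P1 to P7, whose ages share only 1 number, no such fit was made. Ano1 was lower in Claudius and outer sulcus cells by -0.73 with Leiden clusters and was then no longer called (limma adjusted p = 0.0682). Shallow classes limit the low genes: 11 cells with 95056 UMIs gave a single Nt5e UMI.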

Other observations

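At P7 some members were also found in cells outside the sensory epithelium. Entpd2 was at 45.8 and 73.1 CPM in cells gated as mesenchymal (58 UMIs in 217 cells), above its 20.9 CPM in inner phalangeal cells at P1. P2ry2 was at 75.8 and 44.6 CPM in cells gated as glia (25 UMIs in 134 cells). This did not stand apart from pillar and Deiters' cells at P7, at 49.5 and 93.7 CPM, or inner phalangeal cells, at 25.7 and 69.1 CPM. Nt5e was at 62.1 and 94.4 CPM in Claudius and outer sulcus cells, from 11 UMIs in 17 cells. These values were not tested.

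Ano1 was at 61.4 and 103 CPM in the 47 hair cells of E14, from 29 UMIs, above the 31.4 and 24.6 CPM in Kölliker's organ as a whole of the same libraries, and at 5.15 to 14.9 CPM in hair cells at E16. In lateral Kölliker's organ at E14 Ano1 ranged from 42.1 to 79.7 CPM, which overlapped the E14 hair cells. The Kölliker's organ markers in those E14 hair cells were at 20.8% of their Kölliker's organ level, and their part in the value was not tested. Roof cells at P1 were higher than other cells in 7 of 25 pathway genes (28%, against 5.72% of all genes) and lower in 4 (16% against 8.46%), the latter led by the connexin genes Gjb2 (-3.89 ± 0.26, limma adjusted p = 3.03e-08) and Gjb6 (-2.96 ± 0.38, adjusted p = 4.03e-05). Among the higher ones were Entpd3, an ectonucleotidase, at 123 ± 108 against 0.153 ± 0.101 CPM (3.38 ± 0.46, limma adjusted p = 6.91e-05) and Itpr1, a calcium-store channel, at 182 ± 141 against 9.06 ± 1.70 CPM (3.04 ± 0.40, adjusted p = 5.60e-05). Entpd3 and Itpr1 both passed the filter only through roof cells.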
